A study of Homo sapiens with 12 samples.

Results

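The genes that carry acetyl-CoA to squalene epoxide, the early arm of cholesterol synthesis, were examined in NCI-H295R cells, which derive from a human adrenocortical carcinoma and make cortisol and other steroids from cholesterol. The 9 genes were taken by symbol, and all 9 were found among the 60662 genes of the deposited table, each once. The 12 samples fall into 3 groups of 4. Cells grown to confluence spent 12 h without serum. They were then exposed for 24 h to DMSO at 0.1% as vehicle (VEH), to CJ28 at 30 µM or to metyrapone (MET), also at 30 µM. CJ28 is a benzimidazolylurea that lowers cortisol production, and metyrapone is a drug that blocks the enzyme of the last step to cortisol. All samples come from this single line. Bulk RNA was measured, so a lower value may come from less RNA per cell or from fewer cells that hold it, which cannot be told apart here. The line was checked against cell type markers. All 8 adrenocortical markers had a mean of at least 0.5 TPM over the 12 samples, against 1 of 4 for adrenal medulla (CHGA), 0 of 4 for fibroblasts, 0 of 3 for endothelium and 0 of 4 for leukocytes, and TH and CD3E were listed at 0 in every sample. By group, the adrenocortical markers HSD3B2 and MC2R were under that level in CJ28, with means of 0.19 and 0.35 TPM. The fibroblast marker COL1A1 was above it in VEH, with a mean of 0.65 TPM. The summed adrenocortical markers themselves ranged from 114.66 to 121.69 TPM in CJ28, below the 273.55 to 284.38 TPM in VEH and the 272.54 to 286.19 TPM in MET, and their part in the results was not tested. Of these markers 7 were lower and 1 higher in CJ28 at an adjusted p under 0.05 (limma), against 37.1% and 19.9% of tested genes. The higher one was NR0B1, a nuclear receptor, with 2.94 ± 0.271 TPM in VEH and 5.81 ± 0.292 TPM in CJ28. The summed markers of the other cell types stayed at or under 1.17 TPM per list in every sample.

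Cholesterol synthesis starts from acetyl-CoA, which is built up to HMG-CoA and then reduced to mevalonate. Mevalonate is then phosphorylated, decarboxylated and assembled into farnesyl pyrophosphate, a branch point from which cells also make ubiquinone, dolichol and the lipid anchors of proteins. The path to sterols continues through squalene and squalene epoxide to lanosterol. In adrenocortical cells cholesterol is the precursor of every steroid hormone. Transcription of the pathway is driven by the SREBP factors, chiefly SREBP2, which are released from the endoplasmic reticulum when sterols are low.

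In order of the reactions, ACAT2 (chromosome 6, 159762045 to 159779112, plus strand) encodes the cytosolic thiolase that joins acetyl-CoA units, and HMGCS1 (chromosome 5, 43287470 to 43313512, minus strand) encodes the synthase that makes HMG-CoA. MVK (chromosome 12, 109573255 to 109598125, plus strand) and PMVK (chromosome 1, 154924740 to 154936719, minus strand) encode the kinases that phosphorylate mevalonate in turn. MVD (chromosome 16, 88651935 to 88663161, minus strand) encodes the decarboxylase that yields isopentenyl pyrophosphate, and IDI1 (chromosome 10, 1039152 to 1049170, minus strand) the isomerase that interconverts it with dimethylallyl pyrophosphate. FDPS (chromosome 1, 155308748 to 155320666, plus strand) encodes farnesyl pyrophosphate synthase. FDFT1 (chromosome 8, 11795573 to 11839304, plus strand) encodes squalene synthase, the first enzyme committed to sterols, and SQLE (chromosome 8, 124998497 to 125022283, plus strand) encodes squalene epoxidase. Coordinates are gene spans on GRCh38 as the deposited table lists them, and all 9 are listed as protein-coding.

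In VEH-treated cells the 9 genes differed widely in level. TPM is corrected for transcript length, so levels of different genes can be set side by side. HMGCS1 was the highest at 195.91 ± 10.3 TPM (SD, n = 4, as for all means that follow), followed by FDPS at 155.5 ± 7.20 and FDFT1 at 77.3 ± 6.50 TPM. The middle of the order was held by ACAT2 at 61.2 ± 2.73, IDI1 at 47.3 ± 2.08, MVD at 26.2 ± 0.207 and MVK at 23.1 ± 1.42 TPM. SQLE at 13.1 ± 0.669 TPM and PMVK at 6.17 ± 0.878 TPM, the kinase that follows MVK, closed it. No neighbours in this order overlapped in the range of their 4 VEH samples. The 9 genes summed to 605.7 ± 25.6 TPM in VEH, 199.6 ± 3.83 TPM in CJ28 and 567.3 ± 7.73 TPM in MET.

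Promoter sequences are shown for some of the 9 genes. They were chosen with the CJ28 results known, and a link of their letters to the changes was not tested. RefSeq promoter windows on GRCh38.p14, from 250 bases before to 50 bases after an annotated start, were matched by symbol for 6 of the 9 genes with 9 windows in all. ACAT2, FDFT1 and SQLE had none in the table used. The stretches below lie upstream of both the RefSeq start and the first base of the gene in the deposited table, read 5′ to 3′ on the strand of the gene, with every CCAAT and its reverse complement ATTGG in capitals. CCAAT is the letter core recognised by NF-Y, a factor known to act beside SREBP at sterol genes.
HMGCS1, chr5:43313513-43313662, minus strand: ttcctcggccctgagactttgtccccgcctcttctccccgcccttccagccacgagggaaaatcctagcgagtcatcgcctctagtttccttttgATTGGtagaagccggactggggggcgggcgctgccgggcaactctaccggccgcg
MVD, chr16:88663162-88663341, minus strand: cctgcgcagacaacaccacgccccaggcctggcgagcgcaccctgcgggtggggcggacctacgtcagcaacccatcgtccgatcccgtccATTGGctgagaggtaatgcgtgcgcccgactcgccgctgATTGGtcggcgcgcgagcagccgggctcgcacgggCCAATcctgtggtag
IDI1, chr10:1049171-1049369, minus strand: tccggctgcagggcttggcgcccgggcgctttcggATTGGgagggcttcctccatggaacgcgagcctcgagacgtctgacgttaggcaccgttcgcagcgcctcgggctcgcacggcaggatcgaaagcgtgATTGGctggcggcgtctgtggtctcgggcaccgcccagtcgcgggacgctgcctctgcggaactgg
FDPS, chr1:155308616-155308747, plus strand: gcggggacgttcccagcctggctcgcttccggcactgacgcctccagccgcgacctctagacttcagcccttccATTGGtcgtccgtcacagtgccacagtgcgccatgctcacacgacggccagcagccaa
PMVK, chr1:154936720-154936969, minus strand: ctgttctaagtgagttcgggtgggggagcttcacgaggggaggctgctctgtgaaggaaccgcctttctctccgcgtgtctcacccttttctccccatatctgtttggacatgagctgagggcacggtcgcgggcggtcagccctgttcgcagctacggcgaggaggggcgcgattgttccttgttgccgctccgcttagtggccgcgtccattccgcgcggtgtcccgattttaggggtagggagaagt
The stretch of MVD holds 3 such matches, that of IDI1 holds 2, those of HMGCS1 and FDPS hold 1 each, and that of PMVK holds 0. The stretches differ in length, from 132 bases for FDPS to 250 for PMVK, so these counts cannot be ranked. The windows of HMGCS1 and FDPS hold further matches at or past the end of the stretch shown. The window of MVK, with 5 matches, lies wholly inside the gene span of the deposited table, so no stretch of it is shown. Over the whole windows, CCAAT on either strand was found in 6 of the 9 windows, against 34.6% of all 35116 promoter windows searched. It was found in 5 of the 6 genes, PMVK being the gene without it. GGGCGG, the letters of an SP1 box, was found on either strand in 9 of 9 windows against 45.0% of all. TCACNCCAC, a core of the sterol regulatory element, was found in 0 of 9 windows against 1.13% of all, CACGTG in 0 against 7.26%, and TGATGNAAT, a site of ATF4 with C/EBP, in 0 against 0.991%. A CCAAT and an ATTGG share letters in 1 window of IDI1. HMGCS1 has 2 windows and IDI1 has 3, some of which overlap. These matches describe letters within the windows and nothing more.

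Expression was lower in CJ28 at the steps from ACAT2 to SQLE, with a smaller difference for PMVK that depended on scaling. All 9 genes were lower in CJ28 than in VEH at an adjusted p under 0.05 in limma, where 37.1% of the 16815 tested genes were lower at that threshold and 19.9% were higher. At a log2 fold change under -1 there were 8 of the 9 genes, against 6.06% of tested genes, and in the same 8 the highest CJ28 value was under the lowest VEH value, against 32.7% of tested genes. The median log2 fold change was -1.69 over the 9 genes and -0.13 over all tested genes. HMGCS1 and MVK fell most, to 0.261 and 0.263 of their VEH means, and SQLE fell least of the 8, to 0.452.

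**Figure D1:**
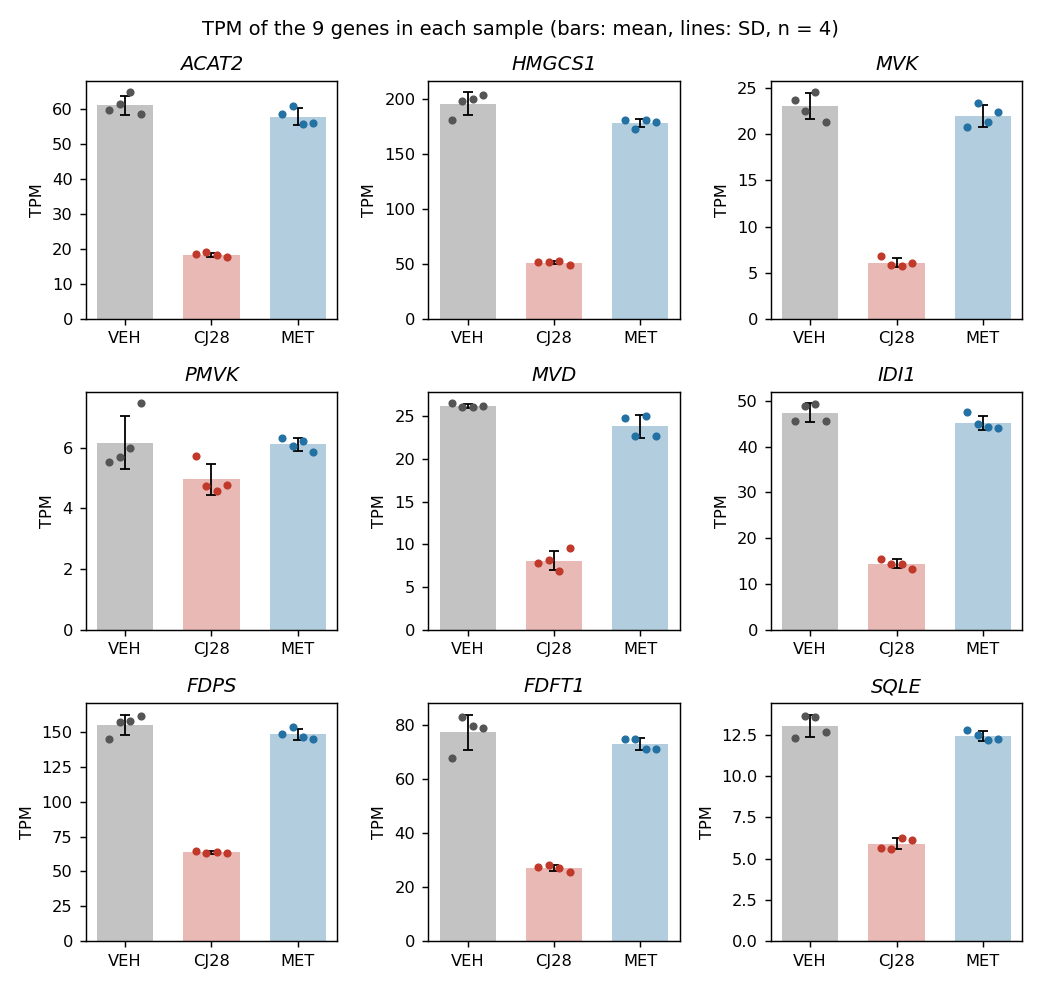
TPM (vertical axes, starting at 0) of each of the 9 genes in VEH, CJ28 and MET; points are single samples, bars are means and lines are SD (n = 4 per group). CJ28 samples lie below all VEH and MET samples in 8 genes, for example 48.71 to 52.30 TPM against 173.17 TPM or more for HMGCS1, while for PMVK the CJ28 and VEH ranges overlap.

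At the entry of acetyl-CoA into the pathway both genes fell. ACAT2 stood at 59.84, 61.52, 64.86 and 58.56 TPM in VEH, at 18.49, 18.99, 18.25 and 17.66 TPM in CJ28, and at 58.66, 60.89, 55.80 and 56.00 TPM in MET. Its CJ28 samples formed a narrow range far under the other 8 samples. The log2 fold change from VEH was -1.73 (standard error 0.041, adjusted p = 6.64e-12 in limma). HMGCS1 held 180.87, 198.75, 199.85 and 204.17 TPM in VEH, 52.07, 51.36, 52.30 and 48.71 TPM in CJ28, and 180.60, 173.17, 181.00 and 178.96 TPM in MET. The synthase thus lost its first place in the order of levels, and its log2 fold change was -1.94 (standard error 0.039, limma adjusted p = 2.12e-12). Only 107 of the 16815 tested genes, 0.636%, had a lower log2 fold change.

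Of the kinases that act in succession on mevalonate, MVK was among the genes that fell most and PMVK was the gene with the smallest difference. MVK fell from 23.76, 22.58, 24.57 and 21.31 TPM in VEH to 6.77, 5.81, 5.68 and 6.01 TPM in CJ28, with 20.82, 23.46, 21.40 and 22.40 TPM in MET. Its log2 fold change in CJ28 was -1.91 (standard error 0.063, adjusted p = 1.10e-10 in limma). PMVK had 5.54, 5.70, 5.99 and 7.46 TPM in VEH, 5.72, 4.75, 4.58 and 4.78 TPM in CJ28, and 6.32, 6.06, 6.23 and 5.85 TPM in MET. A single CJ28 sample lay within the VEH range for PMVK, and the other 3 lay below it. The log2 fold change was -0.31 (standard error 0.093, limma adjusted p = 0.0138, exact permutation test on TPM, two-sided, p = 0.0857), and 35.8% of tested genes had a lower one. The call for PMVK did not hold under scaling: its log2 fold change was -0.16 (adjusted p = 0.1497 in limma) after median-of-ratios scaling and -0.11 (adjusted p = 0.337 in limma) with TPM recomputed over nuclear protein-coding genes. MVK fell by over 1.5 on the log2 scale under both.

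The enzymes that make and assemble isoprene units followed. MVD was at 26.51, 26.11, 26.05 and 26.16 TPM in VEH, at 7.78, 8.18, 6.91 and 9.57 TPM in CJ28, and at 24.85, 22.68, 25.08 and 22.68 TPM in MET. The VEH samples of this decarboxylase were the tightest of any gene and group in the set, with a coefficient of variation of 0.788%, while its CJ28 samples spread by 13.7%. IDI1 was at 45.60, 48.86, 49.38 and 45.49 TPM in VEH, at 15.55, 14.39, 14.45 and 13.24 TPM in CJ28, and at 47.46, 44.95, 44.26 and 44.04 TPM in MET. FDPS, the farnesyl pyrophosphate synthase, had 145.13, 157.17, 158.10 and 161.69 TPM in VEH, 64.87, 62.91, 63.60 and 63.18 TPM in CJ28, and 148.71, 153.79, 146.44 and 145.31 TPM in MET. All CJ28 samples of the 3 genes lay below all others. The log2 fold changes in CJ28 were -1.69 for MVD (standard error 0.078, adjusted p = 2.27e-09 in limma), -1.71 for IDI1 (standard error 0.050, adjusted p = 3.37e-11) and -1.29 for FDPS (standard error 0.035, adjusted p = 1.84e-11). FDPS became the highest of the 9 genes in CJ28 at 63.6 ± 0.868 TPM, above HMGCS1 at 51.1 ± 1.65 TPM, and their ranges did not overlap. The 8 pseudogenes named for FDPS together reached at most 0.65 TPM in any sample; FDPS with them added was lower in CJ28 as well.

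The transcripts of the enzymes that make squalene and its epoxide were lower, too. FDFT1 held 67.88, 82.86, 79.48 and 78.85 TPM in VEH, 27.41, 28.04, 27.05 and 25.65 TPM in CJ28, and 74.70, 74.85, 70.95 and 70.86 TPM in MET. SQLE, which carries out the first oxygenation of the sterol path, held 12.32, 13.67, 13.61 and 12.71 TPM in VEH, 5.63, 5.58, 6.25 and 6.16 TPM in CJ28, and 12.81, 12.52, 12.20 and 12.27 TPM in MET. CJ28 samples again lay apart from both other groups. The log2 fold changes were -1.51 for FDFT1 (standard error 0.055, adjusted p = 2.53e-10 in limma) and -1.13 for SQLE (standard error 0.052, adjusted p = 1.97e-09 in limma).

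**Figure D2:**
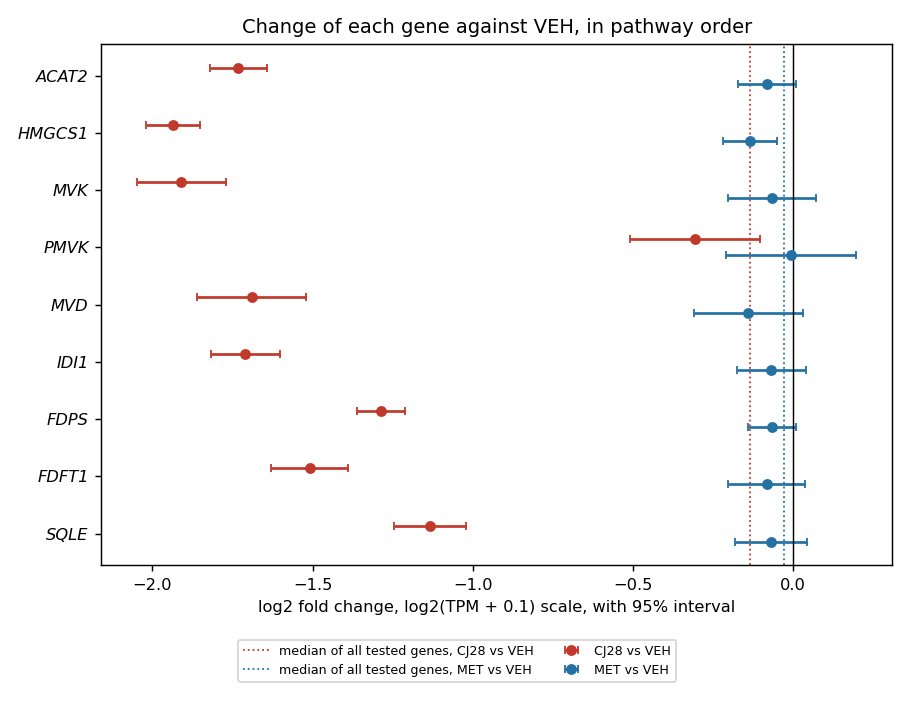
Log2 fold change against VEH on the log2(TPM + 0.1) scale (horizontal axis) for the 9 genes in pathway order, CJ28 in red and MET in blue; lines are 95% intervals from limma, and dotted lines mark the medians of all tested genes. The CJ28 values run from -1.94 for HMGCS1 to -1.13 for SQLE, with PMVK apart at -0.31, and the MET values lie between -0.14 and 0.

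TPM is a share, and nuclear protein-coding genes held 21.3% to 21.4% of TPM in the CJ28 samples against 24.3% to 24.8% in VEH and 24.1% to 24.6% in MET. With TPM recomputed over these genes alone, 8 of the 9 genes were lower in CJ28 at an adjusted p under 0.05 in limma, against 24.7% of tested genes, and the median log2 fold change was -1.49, with a median of 0.08 over all genes. SQLE stood at -0.94 there. Median-of-ratios scaling likewise gave 8 genes, against 26.3% of tested genes, and a median of -1.54, with 0.02 over all genes and SQLE at -0.98. Of all genes called in CJ28 against VEH, 65.1% were lower with the deposited TPM, 47.1% after median-of-ratios scaling and 41.2% with the recomputed TPM. Set against the median of all genes, the median of the 9 genes stood at -1.56, -1.55 and -1.57 in the same order. Each scaling multiplies a sample by a single factor, which moves all genes nearly alike, so this agreement was fixed beforehand and tests nothing.

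The balance between neighbouring steps was compared next. The ratio of a gene to the one before it among the 9 was taken within each sample, on log2(TPM + 0.1), where the total of the library cancels. From VEH to CJ28 the ratio of PMVK to MVK rose from -1.89 ± 0.264 to -0.29 ± 0.036 on the log2 scale, a 3.04-fold change, and that of MVD to PMVK went from 2.08 ± 0.196 to 0.69 ± 0.238. For FDPS to IDI1 the ratio moved by 0.42 and for SQLE to FDFT1 by 0.37 on the log2 scale, toward the later gene. Those of HMGCS1 to ACAT2 and of FDFT1 to FDPS moved by -0.20 and -0.22, toward the earlier gene. In these 6 ratios the groups were fully apart (exact permutation test, two-sided, p = 0.0286 each, the smallest that 4 against 4 samples allow). Adjusted over all 24 ratios and comparisons the value was 0.0623, so that none passed 0.05 after correction. How often ratios of other gene pairs come apart between VEH and CJ28 was not examined. The count of 6 can thus not be read as particular to these genes. The ratios of MVK to HMGCS1 and of IDI1 to MVD moved by 0.03 and -0.02, and their groups overlapped (exact permutation test, p = 0.771 and 0.971). PMVK thereby went from 1.02% ± 0.130 to 2.48% ± 0.221 of the summed TPM of the 9 genes, FDPS from 25.7% ± 0.378 to 31.9% ± 0.400, and HMGCS1 from 32.3% ± 0.545 to 25.6% ± 0.532. In MET the samples overlapped with those of VEH in each of the 8 ratios (smallest p = 0.171, exact permutation test).

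**Figure D3:**
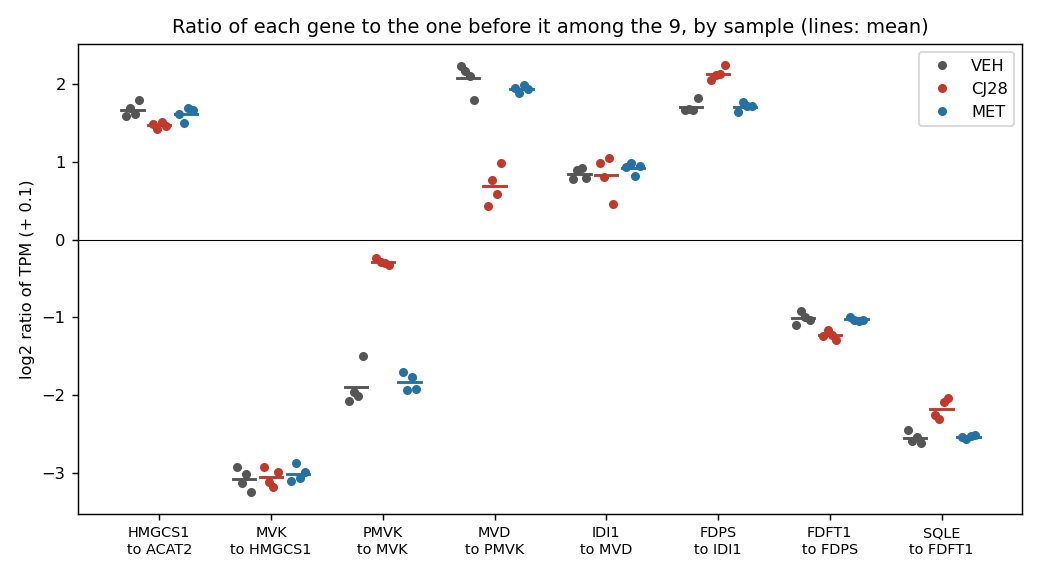
Log2 ratio of TPM (vertical axis, 0.1 added to TPM) of each gene to the one before it among the 9 in the 12 samples; points are samples, horizontal lines are group means (n = 4). PMVK to MVK stands at -0.29 in CJ28 against -1.89 in VEH and -1.83 in MET, and MVK to HMGCS1 and IDI1 to MVD overlap in all groups.

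In MET-treated cells the 9 genes differed from VEH by at most 0.14 on the log2 scale, and none passed the adjusted threshold in limma. All 9 log2 fold changes from VEH were below 0, from -0.14 for MVD to -0.004 for PMVK, while 61.1% of tested genes were below 0. The median was -0.07 over the 9 genes and -0.03 over all tested genes. In limma, 0 of the 9 genes passed an adjusted p under 0.05 (smallest 0.904), against 0.00595% of tested genes lower, and at an unadjusted p under 0.05 there was 1, against 3.74% of tested genes. This was HMGCS1, at -0.13 on the log2 scale (standard error 0.039, unadjusted p = 0.00518 and adjusted p = 0.904 in limma). Its mean of 178.4 ± 3.62 TPM in MET was 0.911 of that in VEH, with 3 of 4 MET samples below the lowest VEH sample (exact permutation test, two-sided, p = 0.0571). MVD was the only gene of the set whose MET samples lay wholly below its VEH samples (exact permutation test, p = 0.0286, the smallest possible), against 2.03% of tested genes, with 23.8 ± 1.32 TPM in MET and a limma unadjusted p of 0.102. With only the VEH and MET samples fitted, MVD had an unadjusted p of 0.0107 and an adjusted p of 0.930 in limma. In that fit 3.66% of tested genes were lower at an unadjusted p under 0.05. In the fit of all 12 samples the 95% intervals of limma reached no lower than -0.31 (MVD) and no higher than 0.20 (PMVK). The sign for PMVK turned to 0.03 after median-of-ratios scaling and to 0.01 with the recomputed TPM.

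How many genes passed an unadjusted p for MET depended on single samples. VEH-1 was the lowest VEH sample in 5 of the 9 genes, namely HMGCS1, PMVK, FDPS, FDFT1 and SQLE. Its sum over the 9 genes was 567.45 TPM against 616.40 to 621.89 TPM in the other 3 VEH samples. Without VEH-1, 3 genes had an unadjusted p under 0.05 in limma, HMGCS1 with 2.22e-04, FDFT1 with 0.00375 and FDPS with 0.00538, and the smallest adjusted p was 0.692, while 4.72% of tested genes were lower at that unadjusted threshold. Leaving out MET-2 also gave 3 (HMGCS1, ACAT2 and FDPS), against 3.95% of tested genes, and leaving out VEH-4, CJ28-3 or CJ28-4 gave 2 each, against 2.50%, 3.80% and 4.01%. Without CJ28-3 or CJ28-4 the fold changes from VEH were the same and only their errors differed. HMGCS1 was among them each time.

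Set directly against each other at the same dose and time, CJ28 and MET differed in all 9 genes. Each was lower in CJ28 at an adjusted p under 0.05 in limma, against 34.6% of tested genes, all CJ28 samples lay below all MET samples for each of the 9, against 31.3%, and 8 had a log2 fold change under -1, against 5.37%. Log2 fold changes of CJ28 against MET ran from -1.84 for MVK and -1.80 for HMGCS1 to -1.07 for SQLE and -0.30 for PMVK (standard error 0.093, adjusted p = 0.0152 in limma). The call for PMVK was again lost after median-of-ratios scaling (log2 fold change -0.18, adjusted p = 0.0961 in limma) and with the recomputed TPM (-0.12, adjusted p = 0.293).

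Downstream of SQLE, 10 of the 11 genes of the lanosterol arm were lower in CJ28 at an adjusted p under 0.05, against 37.1% of tested genes, and 0 were higher, with a median log2 fold change of -1.22. Lanosterol synthase, LSS, fell most there, from 46.9 ± 3.02 to 14.2 ± 0.613 TPM (log2 fold change -1.71). The exception was TM7SF2, a sterol reductase, with -0.12 (adjusted p = 0.342 in limma). Of these 11 genes, 0 passed an adjusted p under 0.05 for MET, 2 had an unadjusted p under 0.05 (HSD17B7 and EBP), against 3.74% of tested genes lower, and the median was -0.08.

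The branches that leave at farnesyl pyrophosphate and isopentenyl pyrophosphate held calls in both directions. Of 14 such genes, 5 were lower and 4 were higher in CJ28 at an adjusted p under 0.05 in limma, against 37.1% and 19.9% of tested genes, and the median log2 fold change was -0.09, close to that of all tested genes. The split depended on scaling. After median-of-ratios scaling NUS1 lost its lower call (-0.08, adjusted p = 0.373 in limma). DHDDS (0.18, adjusted p = 0.0281 in limma) and PGGT1B (0.26, adjusted p = 0.0108 in limma) were then called higher. Of tested genes, 26.3% were lower and 29.5% higher under that scaling. The same calls changed with the recomputed TPM. NUS1 also lost its call without VEH-2, VEH-4, CJ28-2 or CJ28-3. PDSS1, a subunit of the synthase of the ubiquinone tail, fell from 2.42 ± 0.222 to 1.31 ± 0.121 TPM (log2 fold change -0.83), and TRIT1, which isopentenylates tRNA, rose from 5.50 ± 0.299 to 8.65 ± 1.12 TPM (log2 fold change 0.64). Among 5 paralogs and other users of acetyl-CoA, 4 were tested, of which 2 were lower, against 37.1% of tested genes, and 0 were higher. ACLY, which makes cytosolic acetyl-CoA from citrate, fell from 39.3 ± 0.804 to 18.4 ± 0.738 TPM (log2 fold change -1.09). The mitochondrial thiolase ACAT1, which shares its reaction with ACAT2, was at 49.2 ± 0.860 TPM in VEH and 50.6 ± 0.985 TPM in CJ28 (log2 fold change 0.04, adjusted p = 0.353 in limma). After median-of-ratios scaling its log2 fold change was 0.19 (adjusted p = 0.00233 in limma). IDI2, the paralog of IDI1, had a mean of 0.005 TPM in each group and was not tested.

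Most genes of SREBP control were also lower in CJ28. Of 8 genes, all tested, 6 were lower in CJ28 at an adjusted p under 0.05 in limma, against 37.1% of tested genes, and 0 were higher, with a median log2 fold change of -0.52. SREBF1, which encodes SREBP1, had a log2 fold change of -4.25, and INSIG1, the sterol-sensing anchor of SREBP in the endoplasmic reticulum, had -2.23. SREBF2, which encodes SREBP2, went from 13.7 ± 1.43 TPM in VEH to 6.51 ± 1.15 TPM in CJ28 and 11.7 ± 0.925 TPM in MET (log2 fold change in CJ28 -1.07, adjusted p = 7.07e-06 in limma). STARD4, a carrier of cholesterol, had -0.64, the SREBP escort SCAP -0.40, and INSIG2 -0.36. INSIG2 lost its call after median-of-ratios scaling (adjusted p = 0.0948 in limma). The site proteases MBTPS1 and MBTPS2, which cut SREBP in the Golgi, had -0.14 and -0.04 and did not pass (adjusted p = 0.0787 and 0.763). For MET, 0 of the 8 genes passed an adjusted p under 0.05 and SCAP alone had an unadjusted p under 0.05 (0.00447, log2 fold change -0.14), against 3.74% of tested genes lower. The 3 genes listed for the ubiquitin-dependent degradation of sterol synthesis enzymes were lower at an adjusted p under 0.05, against 37.1% of tested genes, with the lowest log2 fold change at -0.34 (MARCHF6, adjusted p = 1.06e-05 in limma). The direction of UBE2G2 among them turned with scaling, from -0.13 to 0.02 after median-of-ratios scaling, and RNF139 lost its call with the recomputed TPM (-0.11, adjusted p = 0.102 in limma), which left MARCHF6 alone. UBE2G2 also lost its call without VEH-2, VEH-4, CJ28-1 or CJ28-3, at -0.12, -0.12, -0.12 and -0.10.

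**Figure D4:**
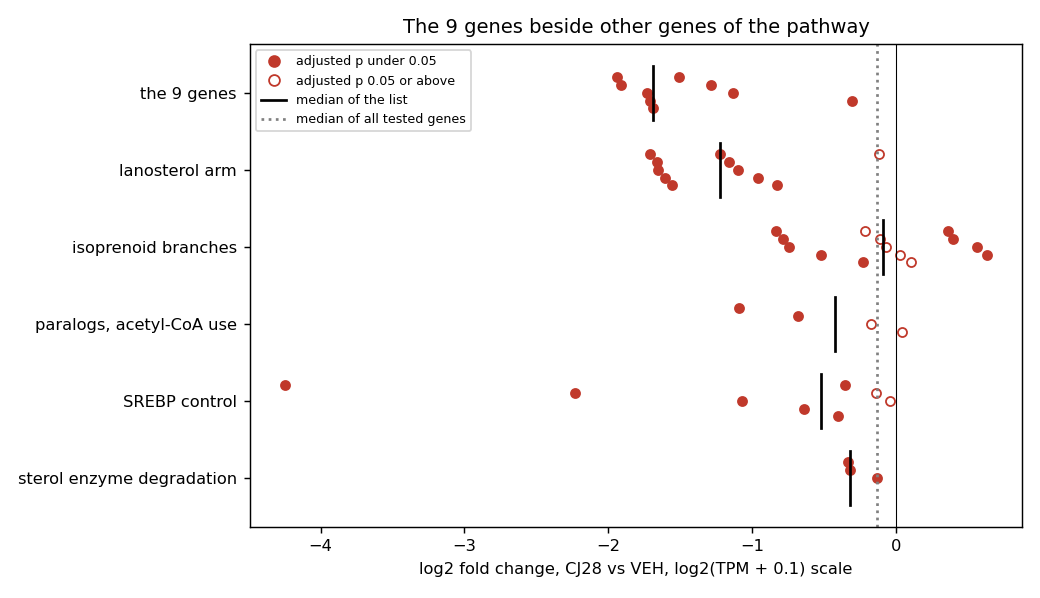
Log2 fold change of CJ28 against VEH on the log2(TPM + 0.1) scale (horizontal axis) for the 9 genes and 5 other lists of pathway genes; filled points have an adjusted p under 0.05 in limma, black lines are list medians and the dotted line is the median of all tested genes. The 9 genes have a median of -1.69, the lanosterol arm of -1.22 and the isoprenoid branches of -0.09.

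Genes that share a start region or overlap with the 9 genes were examined in the same fit, with the deposited TPM only. The other scalings were not applied to them, and PMVK, at -0.31, lost its call under both of those. MMAB, which handles cobalamin, starts 325 bases from MVK on the other strand and overlaps it. It went from 15.5 ± 1.21 TPM in VEH to 12.5 ± 1.34 TPM in CJ28, which is -0.30 on the log2 scale (standard error 0.079, limma adjusted p = 0.00598) beside -1.91 for MVK. WDR37, with its start 368 bases from that of IDI1, had -0.25 (adjusted p = 0.0436 in limma), and the lncRNA SNAI3-AS1, 137 bases from MVD, had -0.59 (adjusted p = 1.48e-04 in limma). Differences between such neighbours were not tested. The lncRNA AC114947.2, inside the span of HMGCS1, went from 4.22 ± 0.329 to 1.06 ± 0.536 TPM (log2 fold change -1.99, adjusted p = 3.36e-05 in limma), SOD2-OT1 at the start of ACAT2 from 1.56 ± 0.142 to 0.390 ± 0.057 TPM (-1.76), and IDI2-AS1 over the end of IDI1 from 2.07 ± 0.0974 to 0.810 ± 0.0432 TPM (-1.25). The libraries were stranded, but whether the counting used strand is not given in the sources used here, so reads of such a pair cannot be told apart. AL451085.2 near PMVK, SOD2 at ACAT2, AC069185.1 in FDFT1 and AC009908.1 near SQLE were under the filter and not tested, with means of at most 0.358 TPM in any group. RUSC1-AS1, which overlaps FDPS, had -0.80, and TCP1, which overlaps the end of ACAT2, had -0.35 with 80.5 ± 2.79 TPM in VEH and 62.9 ± 1.70 TPM in CJ28.

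Among all other tested genes, the patterns most like the mean of the 9 genes over the 12 samples were those of NPTX2, SRSF2, SRSF3, ERG28 and TUBA1A. Likeness was the root mean square difference of log2(TPM + 0.1) after the VEH mean of each gene was subtracted, and it was 0.0531 for NPTX2 and 0.0629 for TUBA1A. For comparison, FDFT1 was the closest of the 9 genes to their mean at 0.0572 and PMVK the farthest at 0.680. ERG28, a scaffold of sterol synthesis enzymes, had 7.81 TPM in VEH, 2.84 TPM in CJ28 and 7.70 TPM in MET on average, and EBP of the lanosterol arm ranked 6. SRSF2 and SRSF3 encode splicing factors and TUBA1A a tubulin.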

How the data were processed

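Libraries were stranded, ribosomal RNA had been removed, and reads were paired. The authors trimmed reads with Cutadapt (version 2.8), mapped them to GRCh38 with STAR (version 2.7.10b) and obtained gene-level values with RSEM (version 1.3.3), and they deposited TPM to 2 decimals. TPM sums to 1000000 in each sample and keeps no depth, so no counting error can be given for single values. RSEM divides reads between similar genes.

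Groups and replicate numbers were taken from the labels. The model, on log2(TPM + 0.1), used limma 3.58.1 in R 4.3.3 with the trend option of eBayes. It took in the 12 samples without a covariate and the 16815 genes that reached 0.5 TPM in 4 or more of them, and two-sided p-values were adjusted by the Benjamini-Hochberg method over all tested genes. All 9 genes passed the filter. Fold changes on this scale understate those of low genes. Single values were compared by exact permutation tests (Python 3.11.15, scipy 1.17.1) and plotted with matplotlib 3.10.9. The limma step was tested on simulated data.

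The genes and lists were chosen with earlier results of these data known. Some genes of the other lists are not reported here and were left out of the counts and medians of these lists. Named genes are the 9 genes, the SREBP control list, the largest rise and fall called in each other list, genes that start within 1000 bases of a member start on the other strand or overlap a member, and the 5 genes most alike. TM7SF2, ACAT1, IDI2, UBE2G2, HSD17B7, EBP, RNF139, NUS1, DHDDS, PGGT1B, HSD3B2, MC2R and COL1A1 were named after their values were seen. Alternatives were pseudocounts of 1 and 0.01, no filter, a filter on mean TPM (1 or more), median-of-ratios scaling, TPM over nuclear protein-coding genes, only the groups compared, a replicate block, no trend, FDPS with its pseudogenes and leaving out each sample. Whether the 4 samples of a group came from separate cultures is not stated, so that p-values measure only the spread between these samples, which may be technical.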

Additional observations from a re-analysis of the deposited data

Results flagged for a closer look

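In 54 groups of 4 values examined (the 9 genes, their sum and the SREBP control genes, in VEH, CJ28 and MET), 2 had a sample far from the other 3, and chance alone gives about 1 in 20. The sum of the 9 genes in VEH-1 was 567.45 TPM, while the other VEH samples lay between 616.40 and 621.89 TPM. INSIG1 in MET-2 was 82.25 TPM, with 79.02 to 79.31 TPM in the other MET samples.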

How the results depend on the processing

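The count of the 9 genes lower in CJ28 was 8 to 9 over all 22 alternatives, against VEH and against MET, and 0 passed an adjusted p under 0.05 for MET under any of them. Of 594 values for single members under alternatives, 590 kept their side of the threshold without a called change of direction, and 4 lost the call, all for PMVK under the scalings described above. Many of these values could hardly differ, so the count is no measure of stability. Adding pseudogenes changed the TPM of FDPS alone, and leaving out a sample of the group not compared cannot move a fold change. The count of members lower in MET at an unadjusted p under 0.05 was 1, with 2 when only the groups compared were fitted and 1 to 3 with a sample left out. Other pathway genes higher in CJ28 numbered 4, and 7 under both median-of-ratios scaling and TPM over nuclear protein-coding genes. Those lower stayed between 22 and 28. The share of all tested genes that was higher also rose, from 19.9% to 29.5% and 35.3% under these scalings. The share that was lower fell from 37.1% to 26.3% and 24.7%. UBE2G2 had a log2 fold change of -0.13 in CJ28 that turned to 0.020 and 0.073 under these scalings. Over all tested genes, 6231 were lower and 3346 higher in CJ28 (65.1% lower), with 3575 and 5108 (41.2% lower) for TPM over nuclear protein-coding genes, and 47.1% lower after median-of-ratios scaling. For same-numbered samples the mean correlation of deviations was 0.024 for CJ28 with VEH, -0.024 for MET with VEH and -0.048 for MET with CJ28. These values cannot decide whether same-numbered samples shared a batch, which the labels do not state. With the replicate block 9 members were lower in CJ28 and 0 in MET. Step ratios were not tested with a sample left out or with a replicate block, since neither design can reach an exact p under 0.05. Precision at low TPM, as for PMVK, is limited by a depth that the table does not give.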
